A study of Mus musculus with 8 samples.

Results

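The families of solute carriers that move amino acids across the plasma membrane and the lysosomal membrane were examined in macrophages deleted for 2 miRNA clusters. Members were all genes of the Slc1, Slc3, Slc6, Slc7, Slc36, Slc38 and Slc43 families in the deposited tables, taken by symbol alone. They came to 41 of 15853 genes, and 37 of the 41 had an adjusted p-value. The family names do not guarantee the substrate. Slc6a6 carries taurine, Slc6a8 carries creatine, Slc6a12 and Slc6a13 carry GABA or betaine, and Slc43a3 is known as a carrier of purine nucleobases.

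The cells were primary bone marrow-derived macrophages of mice, grown for 7 days with L929-conditioned medium, a source of the growth factor M-CSF. Knockout cells were Mirc11fl/fl Mirc22fl/fl Lyz2Cre/Cre, and control cells were Mirc11fl/fl Mirc22fl/fl Lyz2+/+. Both groups thus carried the floxed clusters, and both received 250 uM palmitate (C16:0), a saturated fatty acid, with 25 mM glucose and 10 nM insulin for 24 h. Cre sat in both Lyz2 alleles, which are active in myeloid cells, so Cre, loss of Lyz2 and loss of the miRNAs cannot be told apart. Each genotype had 4 poly(A) RNA-seq libraries, which the design text calls biological replicates without saying that they came from separate animals. The p-values therefore measure the spread between these samples.

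Cells take up amino acids through carriers that differ in substrate, driving ion and membrane. Sodium-coupled carriers of the Slc1, Slc6 and Slc38 families concentrate their substrates in the cell. Slc7 light chains exchange an amino acid for another and reach the surface as heterodimers with a heavy chain of the Slc3 family. For most of them it is Slc3a2, also known as CD98. A second set of carriers releases amino acids from the lysosome, where macrophages digest what they engulf, and some of these also pass information on amino acid supply to the kinase complex mTORC1. Slc7a11, or xCT, imports cystine in exchange for glutamate and so feeds the synthesis of glutathione.

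The deleted clusters give rise to miR-24, miR-27 and miR-23, which pair with target transcripts through their seed, bases 2 to 8 from the 5′ end. The mature sequences are shown because the same seeds were searched for in the transporters' 3′ UTRs. They are from RefSeq (GRCm38.p6), read 5′ to 3′ with the seed in capitals, and miR-27a and miR-27b share a seed. The mature sequence of miR-23b-3p was not at hand and is not shown, so the miR-23 seed is that of miR-23a.
miR-23a-3p: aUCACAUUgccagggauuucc
miR-27a-3p: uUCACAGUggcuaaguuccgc
miR-27b-3p: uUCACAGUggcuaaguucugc
miR-24-3p: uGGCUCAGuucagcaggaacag

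The columns of single libraries carry no sample name and were left out. Each gene is therefore described by the mean normalized count over all 8 libraries, the log2 fold change (knockout over control), its standard error (SE) and the adjusted p-value in the authors' deposited table. Fold changes are written ± SE on the log2 scale. A gene was called when that adjusted p was under 0.05. No header says which genotype is the numerator. Its sign was taken from Lyz2, at -9.10 ± 0.42 by the authors' deposited table, and every direction here rests on that reading. Where a level is given per group, it is the mean implied by the overall mean and the fold change with equal group sizes, and it carries no error of its own. Defining macrophage markers were abundant, with an implied summed level over 9 genes of 777871 in knockout and 805586 in control. Fibroblast and stromal markers were not absent: 15 of the 16 measured were called higher in knockout, the 16 had a median log2 fold change of 1.96, and their implied summed level was 12895 in knockout against 3202 in control. In bulk RNA, fewer cells of a type and less RNA per cell cannot be told apart.

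Of the 37 transporters with an adjusted p, 5 rose and 6 fell in the knockout, and 26 were not called. Slc36a2, Slc7a4, Slc43a3 and Slc38a6 were among those that rose. Slc1a3, Slc36a1, Slc7a11, Slc7a6, Slc7a7 and Slc38a9 fell. Among all 14619 tested genes, the share called was 11.3% higher and 11.7% lower, together 23%. The transporters' shares were 13.5% higher and 16.2% lower. Of the 202 other solute carrier genes tested, 26 were called higher and 33 lower, which is 29.2%, against 29.7% of the transporters. The transporters' share of calls was thus close to that of other solute carriers. Their median log2 fold change was -0.01, beside -0.00 over all tested genes. Changes were moderate in size: 7 of the 11 called members differed by at least 1.5-fold and 3 by at least 2-fold, and those 3, Slc36a2 and Slc1a3 among them, all had a mean normalized count under 50.

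**Figure D1:**
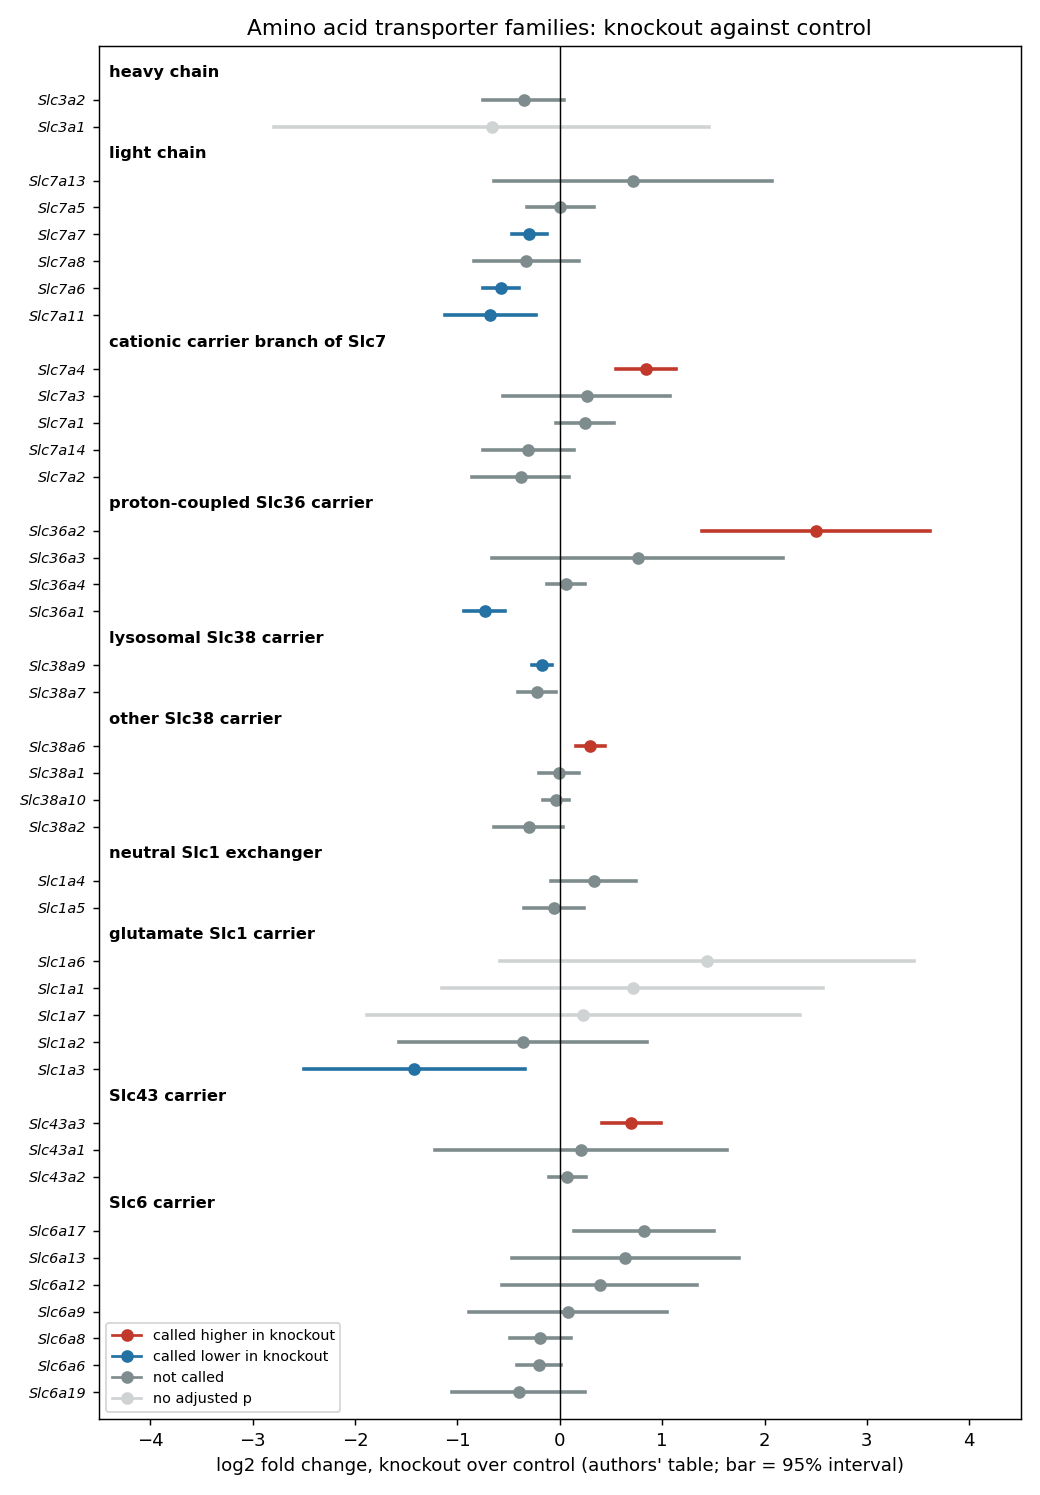
Log2 fold change of the transporter genes, knockout over control, from the authors' deposited table, grouped by role. Points are the fold changes and bars their 95% intervals; red members were called higher in knockout, blue ones lower, dark grey ones were not called and light grey ones had no adjusted p. The red and blue members are spread over several roles.

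Centring fold changes on the sum of each group's means moved the zero by -0.06 and left 6 transporters higher and 4 lower, where the shares over all tested genes became 16% and 6.57%. Slc6a17 joined the members called higher, while Slc1a3 (adjusted p = 0.0579) and Slc38a9 (adjusted p = 0.107) lost their call. With only genes of mean at least 50 tested, 3 transporters were called higher and 5 lower, beside 11.3% and 15.2% of genes so tested, because 3 called members, Slc36a2 and Slc1a3 among them, lie below that mean.

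Among 6 light chains of the Slc7 family, 3 were called lower and 0 higher, beside 11.7% and 11.3% of all tested genes. The CD98 heavy chain was not called. Slc3a2, the CD98 heavy chain, had an implied mean normalized count of 17326 in knockout and 22121 in control. The authors' deposited table gave it a log2 fold change of -0.35 ± 0.20 (adjusted p = 0.2), with a 95% interval from -0.75 to 0.04. Its SE was large for its abundance, at 2.73 times the median of the 500 genes closest in mean. The other heavy chain, Slc3a1, which serves kidney and gut, had a mean of only 2.12 and no adjusted p.

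Slc7a11 fell. Its implied mean normalized count was 414 in knockout and 662 in control, a fold of 0.63. The authors' deposited table put it at -0.68 ± 0.23 (adjusted p = 0.0186). The gene lies at chr3:49892526-50443614 (mm10) on the minus strand. Among 14 genes of glutathione and cystine use, 4 were called higher and 0 lower, beside 11.3% and 11.7% of all tested genes. With centring on the summed group means, 6 were higher and 0 lower, beside 16% and 6.57% of all tested genes. The 3 of smallest adjusted p were Nfe2l2, the transcription factor NRF2, Ggt5, a gamma-glutamyltransferase, and Nqo1, a quinone reductase. The authors' deposited table placed Nfe2l2 at 0.35 ± 0.08, Ggt5 at 1.07 ± 0.25 and Nqo1 at 0.90 ± 0.24 on the log2 scale. Ggt5 and Nqo1 were low, with means of 76.7 and 100.5 normalized counts, and 15 of 16 stromal markers were called higher in the same samples; the part of stromal cells in these values was not tested. The fourth, Gsr, which encodes glutathione reductase and is named because it completes the count, was at 0.27 ± 0.08 by the authors' deposited table. Gclc and Gclm, the subunits of the rate-limiting enzyme of glutathione synthesis, were at -0.05 ± 0.14 and 0.16 ± 0.23 by the authors' deposited table, and neither was called.

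Slc7a6 and Slc7a7, the light chains y+LAT2 and y+LAT1 that exchange cationic for neutral amino acids, both fell. Slc7a6 stood at an implied 733 normalized counts in knockout and 1092 in control. The authors' deposited table gave a log2 fold change of -0.57 ± 0.09 (adjusted p = 8.72e-09), the second smallest adjusted p of the 41. Slc7a7 was at 1508 in knockout and 1851 in control, a smaller fall of 0.30 on the log2 scale (± 0.09, adjusted p = 0.00684) by the authors' deposited table. Exons of Slc7a7 share 7% of their bases with Oxa1l on the opposite strand, and no source used here gives the strand setting of the counting. Oxa1l itself was not called, at -0.12 ± 0.08 by the authors' deposited table.

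The large neutral amino acid exchangers were not called. Slc7a5, or LAT1, was nearly equal between the genotypes, at 308 in knockout and 307 in control, with a log2 fold change of 0.01 and a 95% interval from -0.32 to 0.33 by the authors' deposited table. Slc7a8, or LAT2, was the most abundant light chain per kilobase of its longest coding transcript, at 5052 normalized counts per kb. It was at -0.33 ± 0.26 (adjusted p = 0.384) by the authors' deposited table, with an SE 3.53 times that of genes of like mean. Slc7a13, a light chain known from kidney, had a mean of 6.75 and was not called.

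Among the Slc7 carriers that work without a heavy chain, 1 of 5 was called (20%), beside 23% of all tested genes. Slc7a1 and Slc7a2, the arginine and lysine carriers CAT1 and CAT2, pointed in different directions without passing. The authors' deposited table gave Slc7a1 0.25 ± 0.14 (adjusted p = 0.214) and Slc7a2 -0.38 ± 0.24 (adjusted p = 0.253) on the log2 scale. Slc7a4, whose substrate is not established, rose to 271 implied normalized counts in knockout, against 151 in control. The log2 difference was 0.84 ± 0.15 (adjusted p = 9.67e-07) by the authors' deposited table. That value is uncertain, because 13.3% of its exon bases overlap P2rx6 on the opposite strand. P2rx6 was at 1.31 ± 0.38 by the authors' deposited table, with a mean of 44.1 normalized counts beside 211 for Slc7a4. The part of P2rx6 reads in the value of Slc7a4 was not tested. Slc7a3 and Slc7a14 had means of 22.8 and 47.6 and were not called.

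Lysosomal carriers included the member with the smallest adjusted p. Slc36a1, or PAT1, exports small neutral amino acids with protons from lysosomes. It fell to an implied 3689 normalized counts in knockout, against 6141 in control, a fold of 0.60. The authors' deposited table had this at -0.74 ± 0.10 (adjusted p = 7.99e-11). Slc38a9, the lysosomal arginine sensor that acts through the Rag GTPases, fell slightly, to 2507 in knockout against 2828 in control. The authors' deposited table gave it -0.17 ± 0.05 (adjusted p = 0.00615), and the call was lost when fold changes were centred on the summed group means. Slc38a7, the lysosomal glutamine exporter, missed the threshold at -0.22 ± 0.09 (adjusted p = 0.0739) by the authors' deposited table. Slc36a4, or PAT4, was at 4826 in knockout and 4621 in control, with a 95% interval for its log2 fold change from -0.12 to 0.25 by the authors' deposited table. The interval of Slc36a1, from -0.94 to -0.53, did not overlap that of this paralog; the difference itself was not tested.

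Other amino acid and peptide carriers outside these families, lysosomal ones among them, fell in part. Of 11 other amino acid and peptide carriers measured, 4 were called lower and 0 higher, beside 11.7% of all genes called lower. In the authors' deposited table Ctns, the lysosomal cystine exporter, was at -0.34 ± 0.06, Slc66a1, a lysosomal exporter of cationic amino acids, at -0.26 ± 0.06 and Slc15a4, a lysosomal histidine and peptide carrier, at -0.26 ± 0.06. The fourth was Mfsd12, a carrier that brings cysteine into lysosomes, at -0.18 ± 0.04 by the authors' deposited table, named because it completes the count. All 4 had means above 1000, where 17.6% of genes were called lower. These 4 calls also held when fold changes were centred on the summed group means. There 1 carrier of the 11, Slc17a5, was called higher, at 0.18 (adjusted p = 0.0215). Without that centring, 5 of the 11 had a positive log2 fold change and 6 a negative one, with a median of -0.07. Macrophage markers moved in part the same way, with 4 of 9 called lower and 1 higher. Among all genes with a mean of at least 1000, 17.6% were called lower and 8.14% higher. With centring on the summed group means, 3 of the markers were lower and 1 higher, beside 6.57% and 16% of all tested genes. The part of these markers in the falls of the carriers was not tested.

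The genes that read amino acid supply for mTORC1 gave calls in both directions. Of 28 Rag, Ragulator, GATOR and sestrin genes, 3 were called higher (10.7%) and 4 lower (14.3%), with a median of -0.01, beside 11.3% and 11.7% of all tested genes. That balance turned with fold changes centred on the summed group means, to 6 higher and 2 lower, beside 16% and 6.57% of all tested genes. The smallest adjusted p was that of Sesn2, a leucine-binding inhibitor of mTORC1 activation, at 0.90 ± 0.07 (adjusted p = 6.85e-40) by the authors' deposited table. Nprl2, a GATOR1 subunit, was at -0.26 ± 0.07 and Flcn, folliculin, at 0.22 ± 0.07 by the authors' deposited table. The ATF4 response raises several amino acid carriers when amino acids are short. Of 24 genes of the ATF4 list, 3 were called higher (12.5%) and 1 lower (4.17%), beside 11.3% and 11.7% of all tested genes. Their median log2 fold change was -0.06, with 11 positive and 13 negative. That list also holds the kinases Eif2ak1, Eif2ak2, Eif2ak3 and Eif2ak4, which act upstream of ATF4, and none of them was called. Atf4 itself was not called, at -0.24 ± 0.12 (adjusted p = 0.122) by the authors' deposited table. Those called were Ddit4, an mTORC1 inhibitor (0.64 ± 0.12), Psat1, a serine synthesis enzyme (0.53 ± 0.17), Pycr1, a proline synthesis enzyme (1.46 ± 0.48), and Cebpg, a bZIP partner of ATF4 (-0.38 ± 0.09), as log2 fold changes from the authors' deposited table. Pycr1 is named because it completes the count. It was low, at implied normalized counts of 17.8 in knockout and 6.46 in control. In the same samples 15 of 16 stromal markers were called higher, and the part of stromal cells in the rise of Pycr1 was not tested.

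**Figure D2:**
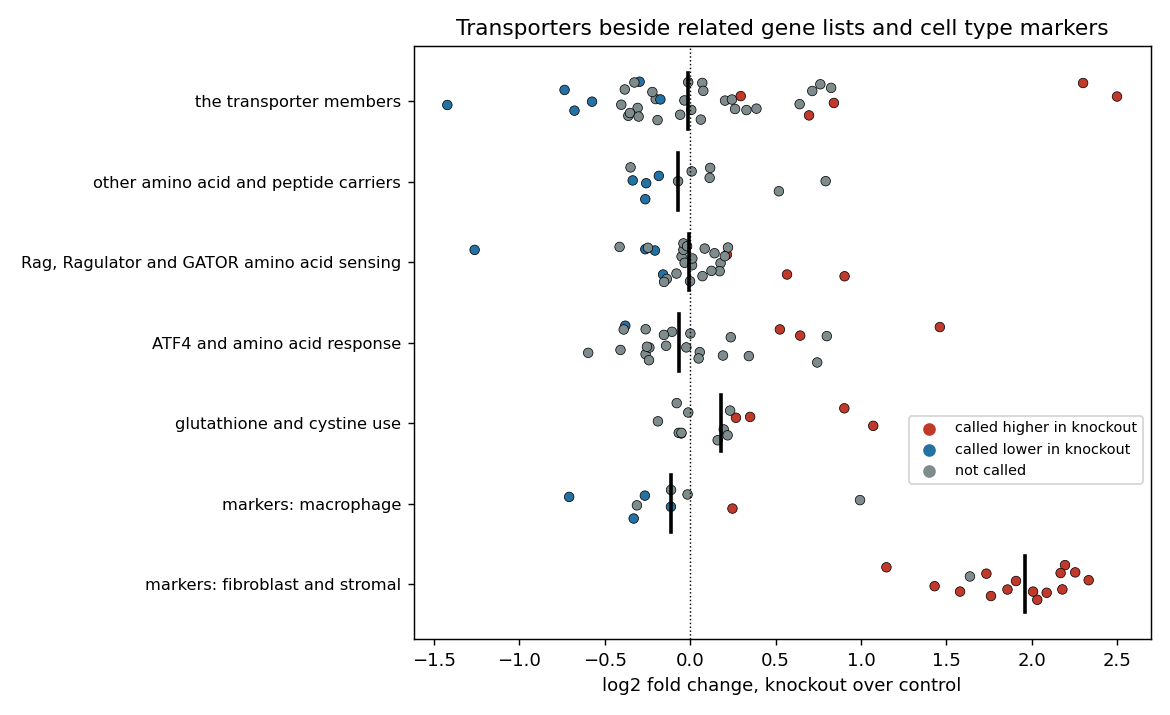
Log2 fold change, knockout over control, of the transporters, of related gene lists and of 2 sets of cell type markers, one point per gene with an adjusted p. Black bars are medians. Transporters centre on -0.01 with calls on both sides, while 15 of 16 stromal markers are called higher around a median of 1.96.

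Among sodium-coupled carriers of neutral amino acids, 1 of the 4 Slc38 members outside the lysosomal set was called (25%), beside 23% of all tested genes. Slc38a1 and Slc38a2, the glutamine and alanine carriers SNAT1 and SNAT2, were at -0.01 ± 0.10 and -0.30 ± 0.17 (adjusted p = 0.2) on the log2 scale by the authors' deposited table. The 95% interval of Slc38a1 ran from -0.21 to 0.18, and that of Slc38a2 from -0.64 to 0.04. Slc38a10 had the narrowest interval of the members not called, at -0.03 with an interval from -0.16 to 0.09 by the authors' deposited table. Slc38a6, a less studied member of the family, rose to 5723 implied normalized counts in knockout, against 4661 in control. The log2 difference was 0.30 ± 0.07 (adjusted p = 0.000572) by the authors' deposited table, and per kilobase no other member called higher was as abundant. The neutral exchangers Slc1a5, or ASCT2, the main glutamine importer of many dividing cells, and Slc1a4, or ASCT1, were at -0.06 ± 0.15 and 0.33 ± 0.21 by the authors' deposited table, and neither was called.

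The glutamate carriers of the Slc1 family were close to the detection limit. Slc1a3, or GLAST, was the only one of the 5 called, at an implied 11.1 normalized counts in knockout and 29.7 in control. It was at -1.42 ± 0.55 (adjusted p = 0.0451) by the authors' deposited table, and the call was lost when centring on the summed group means. Among the 3056 tested genes with a mean under 50, 386 were called higher (12.6%) and 18 lower (0.59%). Slc1a2 had a mean of 6.21 and was not called, and Slc1a1, Slc1a6 and Slc1a7 had means from 2.01 to 3.43 and no adjusted p.

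The uniporter Slc43a2, or LAT4, which lets branched-chain amino acids out of the cell, stood second among the 41 per kilobase, at 8720 normalized counts per kb, behind Slc6a6 at 13477. It was not called, at 0.07 ± 0.09 by the authors' deposited table, and its 95% interval from -0.11 to 0.25 lies within 1.5-fold either way. Slc43a3 rose to 1281 implied normalized counts in knockout, against 790 in control. That was a log2 fold change of 0.70 ± 0.15 (adjusted p = 4.66e-05) by the authors' deposited table. Slc43a1, or LAT3, 73 kb away on chromosome 2, had a mean of 8.97 and was not called.

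**Figure D3:**
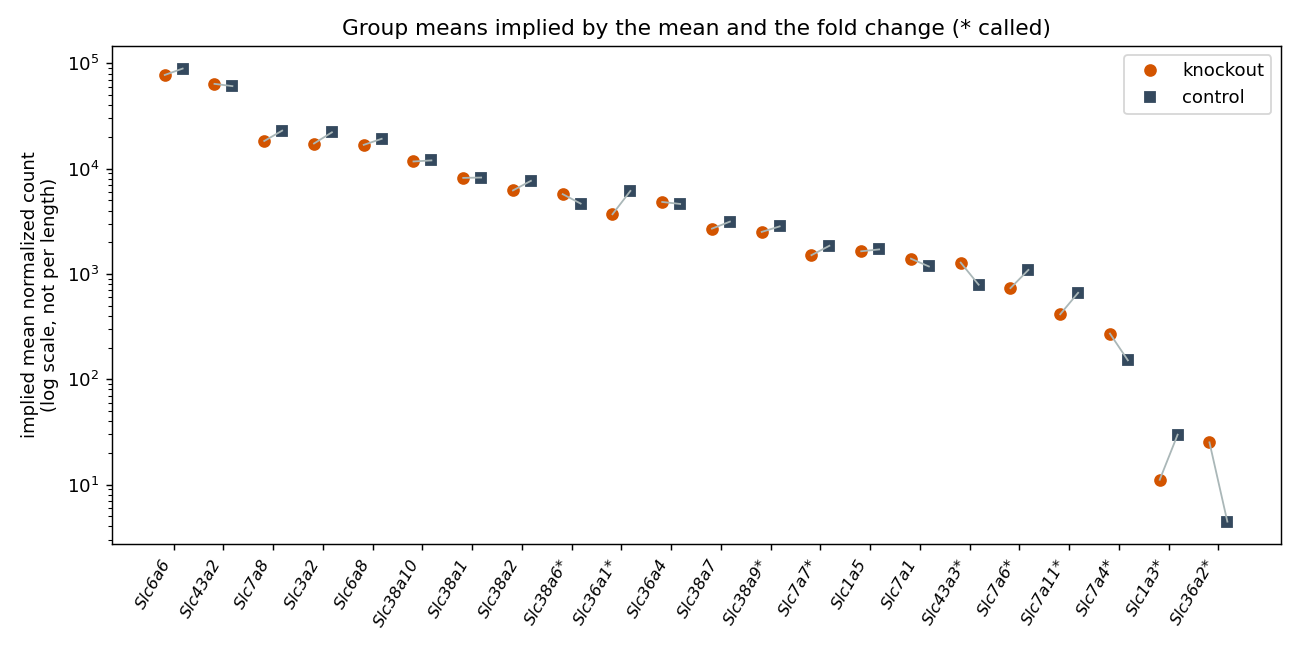
Implied mean normalized count of the named members in knockout (circles) and control (squares) on a log scale, ordered by overall mean; counts are not divided by transcript length, so heights are not compared between genes. Asterisks mark called members, from Slc38a6 at 5723 in knockout and 4661 in control down to Slc36a2 at 25.1 in knockout and 4.45 in control.

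Osmolyte and energy carriers of the Slc6 family were abundant and not called. Slc6a6, the taurine carrier, was at -0.20 ± 0.11 (adjusted p = 0.171) and Slc6a8, the creatine carrier, at -0.19 ± 0.15 (adjusted p = 0.38) on the log2 scale by the authors' deposited table. The interval of Slc6a6 ran from -0.41 to 0.01. Slc6a17, a synaptic vesicle carrier with a mean of 142, narrowly missed the threshold at 0.83 ± 0.35 (adjusted p = 0.0681) by the authors' deposited table. Slc6a9, Slc6a12, Slc6a13 and Slc6a19 had means from 7.26 to 42.7 and were not called.

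Slc36a2, or PAT2, had the largest log2 fold change of the 41. It was at an implied 25.1 normalized counts in knockout and 4.45 in control, and the authors' deposited table gave 2.50 ± 0.57 (adjusted p = 0.000183). The gene lies on chromosome 11, 19.3 kb from Slc36a1 with no coding gene between them, so direct neighbours were called in opposite directions. Their levels differed widely, with means of 14.8 for Slc36a2 and 4915 for Slc36a1. Among tested genes with a mean under 50, 12.6% were called higher and 0.59% lower. Slc36a3, 6.76 kb on the other side of Slc36a2, was at 0.76 ± 0.73 (adjusted p = 0.48) by the authors' deposited table. Beside the rises of Slc36a2, Slc7a4 and Slc43a3, 15 of 16 stromal markers were called higher (median 1.96). The part of stromal cells in these 3 rises was not tested.

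**Figure D4:**
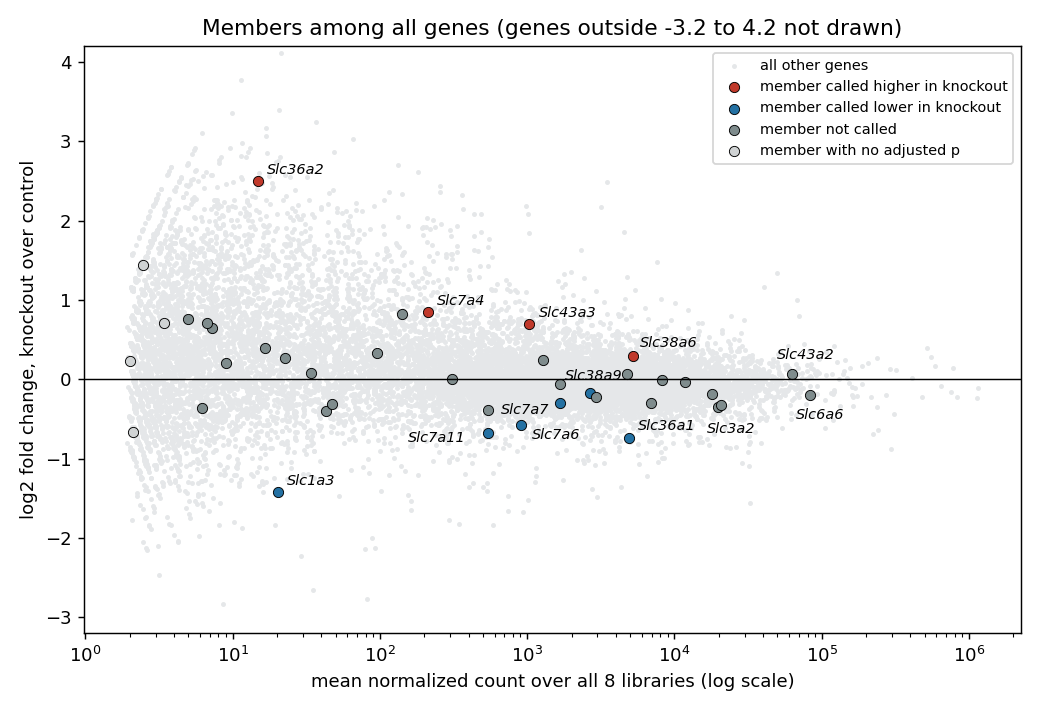
Log2 fold change, knockout over control, against the mean normalized count over all 8 libraries on a log scale, for the transporters (large points) among all other genes (pale points). Of the called members drawn, Slc36a2 at 2.50 and Slc1a3 at -1.42, both with a mean under 50, lie farthest from 0, while no member with a mean of at least 1000 lies outside -0.74 to 0.70.

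Precision differed widely between members of like abundance. The SE of a transporter was a median 1.16 times that of the 500 genes closest in mean, and in 5 members it was at least 2 times as large. These were Slc7a8, Slc3a2, Slc38a2, Slc6a8 and Slc7a2, with ratios from 2.00 to 3.53. Among genes of like mean, 97.8% had a smaller SE than Slc7a8 and 95.2% a smaller SE than Slc3a2. Slc38a9 was the reverse case, with a ratio of 0.65, and its change of -0.17 was the smallest to be called. For 10 of the 26 members not called, the 95% interval lay within 1.5-fold either way. For the other 16 the interval reached past 1.5-fold.

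**Figure D5:**
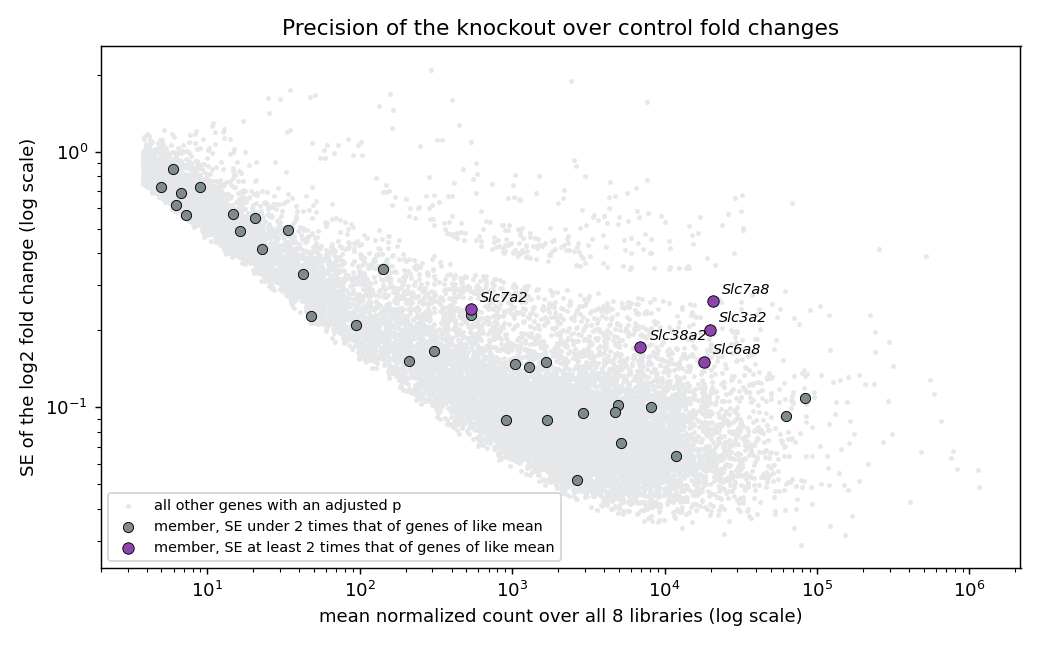
SE of the log2 fold change against the mean normalized count, both on log scales, for the 37 transporters with an adjusted p (large points) and all other such genes (pale points). Purple points are the 5 members whose SE was at least 2 times the median of genes of like mean, with Slc7a8 the farthest above at 3.53 times.

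For each gene the longest 3′ UTR in GENCODE M21 was searched for seed matches. The letters were AATGTGA for miR-23, ACTGTGA for miR-27 and CTGAGCC for miR-24, each extended to 8 nucleotides by a following A. Of the 37 tested transporters, 16 (43.2%) had at least 1 match, beside 40.8% of 13087 tested genes with a 3′ UTR. By miRNA, 8 had a match for miR-23 (21.6%, beside 16.7% of genes), 9 for miR-27 (24.3%, beside 17.4%) and 5 for miR-24 (13.5%, beside 19.2%). Of the 16, 2 were called higher (Slc38a6 among them) and 2 lower (Slc36a1 and Slc7a11), with a median log2 fold change of -0.21. Over all tested genes with a match, 15.8% were called higher and 10.1% lower, with a median of 0.04. An 8-nucleotide match was present in 9 transporters (24.3%, beside 19.4% of genes). The matches below are those of Slc38a6, Slc36a1 and Slc7a11, to show called members that moved in each direction, and the 8-nucleotide ones of 4 members with a mean above 1000 that were not called. They are read 5′ to 3′ on the transcript, in mm10, with the match in capitals.
Slc38a6, miR-24, chr12:73314248-73314277, plus strand: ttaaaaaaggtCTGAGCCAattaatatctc
Slc38a6, miR-24, chr12:73314389-73314418, plus strand: cctgtaatggcCTGAGCCAcgagggtttac
Slc36a1, miR-23, chr11:55235149-55235177, plus strand: tcgaaaacttgAATGTGAgcacttgctgg
Slc7a11, miR-23, chr3:50365920-50365948, minus strand: tacttcattaaAATGTGAgtttgtaagtt
Slc7a11, miR-27, chr3:50371886-50371915, minus strand: gggacatctatACTGTGAAagtattttgtt
Slc36a4, miR-27, chr9:15738499-15738528, plus strand: attgcaatttgACTGTGAActggacatctt
Slc38a1, miR-23, chr15:96571418-96571444, minus strand: tcaaacattaaAATGTGAAttaaagta
Slc6a8, miR-23, chrX:73681537-73681566, plus strand: acagtggaaccAATGTGAAtattgcagctg
Slc7a1, miR-23, chr5:148327541-148327570, minus strand: ttttgaaaaaaAATGTGAAatttatgtttc

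Called members with a match lay in both directions. Slc38a6, which carries both miR-24 matches in exon 5 of the transcript searched, rose by 0.30, but only 1 of its 5 coding transcripts holds them. Slc7a11, with a miR-27 match in exon 12, and Slc36a1, with a miR-23 match in exon 11, fell by 0.68 and 0.74 on the log2 scale by the authors' deposited table. Those matches lie in the 3′ UTR of 1 of 2 coding transcripts of Slc7a11 and 1 of 4 of Slc36a1. Slc36a4 and Slc38a1, with 8-nucleotide matches, were at 0.06 and -0.01 by the authors' deposited table and were not called. A match is a description of letters in the annotation and shows no binding.

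Promoter sequences of RefSeq (GRCm38.p6, 250 bases before to 50 after each start) were at hand for 29 of the 41 genes. Both strands were searched for TGATGNAA, the core of the amino acid response element bound by ATF4, for CACGTG, the E-box read by TFEB and by other factors, and for TGACNNNGC, the antioxidant response element. At least 1 promoter held the first motif in 3 of the 29 genes (Slc7a11, Slc7a7 and Slc1a4), the E-box in 6 and the antioxidant element in 7. Counted per gene over 10679 tested genes with a promoter, the shares were 2.88%, 11.3% and 16.9%. The transporters' shares were 10.3%, 20.7% and 24.1%. The 29 transporters were not limited to tested genes. Slc1a6 and Slc1a7, both with an E-box, had no adjusted p, so these shares are not fully comparable. Over all 32851 single promoters of this length the shares were 3.97%, 7.15% and 12.4%. The stretches around the matches are shown for Slc7a11, the fallen cystine carrier, and for Slc36a1 and Slc38a7, lysosomal carriers with an E-box and a mean above 1000, with matches in capitals and each on the strand of its gene.
Slc7a11, amino acid response element, chr3:50443638-50443694, minus strand: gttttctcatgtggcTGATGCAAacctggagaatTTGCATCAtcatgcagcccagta
Slc36a1, E-box, chr11:55204294-55204357, plus strand: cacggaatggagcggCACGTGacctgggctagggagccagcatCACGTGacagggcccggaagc
Slc38a7, E-box, chr8:95853505-95853540, minus strand: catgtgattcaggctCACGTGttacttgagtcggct

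Slc7a11 held 2 matches in opposite orientation, beginning 66 and 47 bases before the annotated start. Slc36a1 held 2 E-boxes, beginning 31 and 3 bases before it, the nearer of which overlaps a match of the antioxidant element. Slc38a7 held 1, beginning 34 bases before the start. Of the 3 genes, Slc7a11 and Slc36a1 were called lower, and Slc38a7, at -0.22 ± 0.09 (adjusted p = 0.0739) by the authors' deposited table, was not called.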

How the data were processed

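RNA was measured in 8 libraries, 4 of knockout and 4 of control macrophages, grouped by the sample labels. The submitters' processing notes name the tools FastQC, cutadapt, Salmon and DESeq2 and the build mm10, with no version or setting. The deposited comparison holds, per the file headers, the authors' mean normalized count (a signal value), log2 fold change and SE (log2 units), Wald statistic (a score), p-value and adjusted p-value, all from one fit over all genes. Normalized counts per library fill 8 columns whose names match no sample, so they were not used; depth per library is unknown here, and the planned limma fit, refits without single libraries and replicate block were not run.

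The 41 members and all gene lists were chosen with earlier results of these data known. Named were all called members, those with a mean of at least 1000, Slc3a2, Slc7a11, 4 lysosomal carriers and up to 3 genes per other list of smallest adjusted p. Other members given with values, among them Slc7a5, Slc7a2, Slc1a4, Slc6a17 and Slc36a3, were chosen after their values were seen. 1 member is counted in the totals but is not reported by name here or drawn in the plots that name genes. Intervals are the fold change plus or minus the normal 95% bound. Implied group means assume equal group sizes. Recomputing Benjamini-Hochberg over 14619 genes gave the deposited adjusted p to within 5.66e-09. Centred fold changes were divided by the deposited SE, tested two-sided on the normal scale and adjusted again. The Benjamini-Hochberg step and centring on the median were checked on simulated data, and the other steps were not. Python 3.11.15, pandas 2.3.3 and scipy 1.17.1 were used. Markers of neutrophils, T and B cells, mast cells, dendritic cells and adipocytes had 0 called genes, beside 23% of all tested genes. Only 1 neutrophil, 1 T and B cell, 1 mast cell, 2 dendritic cell and 1 adipocyte marker had an adjusted p. So few genes cannot show whether such cells were present or differed. The mast cell marker, Kit, was at 1.09 ± 0.51 (adjusted p = 0.103) by the authors' deposited table. The summed implied level of each list was at most 81.7 in knockout and 83.9 in control.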

Additional observations from a re-analysis of the deposited data

How the results depend on the processing

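Adjusting over all genes with a p-value, or centring on the median gene (a shift of -0.00), left each transporter under the naming rule on the same side of the threshold. With only genes of mean at least 50, the number called higher was 3 in place of 5. At an adjusted p under 0.01, 3 members were no longer called, Slc1a3 and Slc7a11 among them. Centring on the summed group means turned the sign of 3 uncalled members, Slc1a5 (to 0.0045), Slc38a1 (to 0.052) and Slc38a10 (to 0.029), and ended the calls of Slc1a3 (-1.36) and Slc38a9 (-0.11); the cause was not tested. The median of the members ran from -0.12 with genes of mean at least 50 to 0.05 with that centring. With 8-nucleotide matches alone, 9 members had a match in place of 16, a stricter definition by construction. No paired analysis was possible because no deposited column of single-library values could be tied to a sample or replicate number, and for the same reason no library could be left out.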

Other observations

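Enzymes that use the carried amino acids were examined as a further list, with 4 of 20 called higher and 1 lower, beside 11.3% and 11.7% of all genes. Centred on the summed group means, 4 were higher and 0 lower, beside 16% and 6.57% of all tested genes. Those of smallest adjusted p were Odc1, the first enzyme of polyamine synthesis (0.41 ± 0.11), Kynu, which acts in tryptophan breakdown (1.00 ± 0.28), and Bcat1, the cytosolic branched-chain aminotransferase (1.70 ± 0.48), as log2 fold changes ± SE in the authors' deposited table. The other 2 called were glutamine synthetase, Glul, at 0.39 ± 0.13 and glutamate dehydrogenase, Glud1, at -0.13 ± 0.04 in the authors' deposited table, named because they complete the count. Kynu and Bcat1 were low, at implied normalized counts of 59.0 and 35.4 in knockout and 29.4 and 10.9 in control, and 15 of 16 stromal markers were also called higher; the part of stromal cells in both rises was not tested.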
